A study of Homo sapiens with 12 samples.

Results

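The ZFP36 family consists of ZFP36, ZFP36L1 and ZFP36L2, 3 of the 18239 genes that the arrays measured with a probe set of a single gene symbol. The family was chosen by the measured rise of ZFP36 with CPI203 on these same arrays, and every probe set annotated to 1 of the 3 symbols was then taken, 10 of the 49386 on the array. ZFP36 had 1 probe set, ZFP36L1 had 5 and ZFP36L2 had 4, and 9 of the 10 passed the filter on low levels (log2 5 or more on at least 3 arrays). Because ZFP36 and its CPI203 response led to the choice, all values of the members that involve CPI203 against its absence are given as a description, with no p. Whether their responses to LenDex also entered the choice was not recorded, so the tests of LenDex on the members are no independent evidence.

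The 3 proteins bind AU-rich elements in the untranslated end of messenger RNAs through a pair of CCCH zinc fingers and bring in the CCR4-NOT complex, which shortens the poly(A) tail and starts decay. ZFP36, also called tristetraprolin, is an immediate early gene that limits cytokines such as TNF. ZFP36L1 and ZFP36L2, also called BRF1 and BRF2, restrain cell cycle transcripts in developing lymphocytes, as known from mice. The kinase MK2, downstream of p38, phosphorylates ZFP36, which then binds 14-3-3 proteins and promotes decay less well.

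Total RNA of human multiple myeloma cell lines, which grow from malignant plasma cells, was measured on 12 single-colour arrays, with 1 array per line and treatment. The lines were ARP1, JJN3 and RPMI-8226, as labelled, and the 4 groups were CPI203 (a BET bromodomain inhibitor, at 0.01 µM), LenDex (lenalidomide at 5 µM with dexamethasone at 0.05 µM), Combo (all 3 drugs at those doses) and control. Exposure lasted 6 h per the treatment protocol, although the titles of the CPI203 arrays give no time. Lenalidomide, a cereblon ligand, and dexamethasone, a glucocorticoid, were always given together, so their effects cannot be told apart.

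The arrays labelled JJN3 and RPMI-8226 lacked some defining plasma cell transcripts and carried some of B cells. SDC1 (CD138) lay between log2 11.78 and 12.26 on the ARP1 arrays, but between 4.96 and 5.79 on those of the other lines, where the B cell gene MS4A1 (CD20) lay between 11.48 and 12.06, against 4.59 to 5.33 on ARP1 arrays. PRDM1 (Blimp-1) was likewise high on ARP1 arrays (10.96 to 11.55) and low on the others (4.84 to 5.97). Other markers did not follow this split: IRF4 lay between 12.37 and 13.31 on the JJN3 and RPMI-8226 arrays, against 11.83 to 12.26 on ARP1 arrays, XBP1 and MZB1 stayed above 10 on all arrays, and the B cell gene PAX5 lay between 6.87 and 7.41 throughout. The median of 8 plasma cell markers was 11.56 to 11.75 on ARP1 arrays, 6.99 to 8.48 on JJN3 arrays and 6.73 to 8.63 on RPMI-8226 arrays. That of 6 B cell markers was 4.89 to 5.46, 7.11 to 8.17 and 7.22 to 8.48 in the same order of lines, and those of T cell, monocyte and erythroid markers stayed between 4.78 and 5.82 on all arrays. Single markers stood out from these medians: HBG1, a fetal globin, lay between 12.26 and 12.40 on ARP1, 13.19 and 13.32 on JJN3 and 6.77 and 8.53 on RPMI-8226 arrays, and CD3D between 7.33 and 7.68 on JJN3 arrays. JJN3 and RPMI-8226 arrays correlated with each other at 0.963 to 0.981, against 0.867 to 0.887 with ARP1 arrays. Within a label the range was 0.980 to 0.990 for JJN3, 0.976 to 0.990 for RPMI-8226 and 0.987 to 0.994 for ARP1. The range between the JJN3 and RPMI-8226 labels thus overlapped those within them. Whether they count as independent lines was not tested. The JJN3 control array stood apart from the other JJN3 arrays in immunoglobulin transcripts (IGKC at log2 9.32, against 5.11 to 5.55), so results are also given without it. Known marks of dexamethasone and of CPI203 were seen as averages over the lines. TSC22D3 (GILZ), a glucocorticoid target, rose by 3.58 ± 0.24 on the log2 scale with LenDex (limma, adjusted p = 0.000224). HEXIM1, a gene known to rise with BET inhibitors, rose by 1.14 ± 0.22 with CPI203 (adjusted p = 0.022). No mark of lenalidomide was checked.

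Each drug effect was taken as an average over both levels of the other drug. The CPI203 effect is the mean of the 6 CPI203 and Combo arrays minus that of the 6 LenDex and control arrays, and the LenDex effect is the mean of the 6 LenDex and Combo arrays minus that of the 6 CPI203 and control arrays. The errors are standard errors of a limma fit with cell line and group as terms, and a gene was called at a Benjamini-Hochberg adjusted p under 0.05 over the 15173 genes tested. The 3 lines serve as the replicates. Because line is a term of this fit, differences in level between lines do not enter its error. Its p-values instead rest on how much the measured responses to treatment vary from line to line. Precision is limited by how few arrays there are. RNA came from whole cultures, so fewer cells of a kind and less RNA per cell cannot be told apart.

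The 3 members went separate ways. ZFP36 stood higher with CPI203 (2.35-fold) and ZFP36L2 higher with LenDex (2.45-fold), while ZFP36L1 stood lower with either (1.46-fold with CPI203 and 1.67-fold with LenDex). Combo cells, compared with control cells, had 3.19-fold more ZFP36, 2.31-fold more ZFP36L2 and 2.44-fold less ZFP36L1. Each direction was seen in 3 of 3 lines. These values are those of the highest probe set of each gene, and the dimmer ZFP36L1 probe sets carried little of the fall. With the mean of all its probe sets, ZFP36L1 stood at -0.17 for CPI203 and -0.21 for LenDex on the log2 scale.

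**Figure D1:**
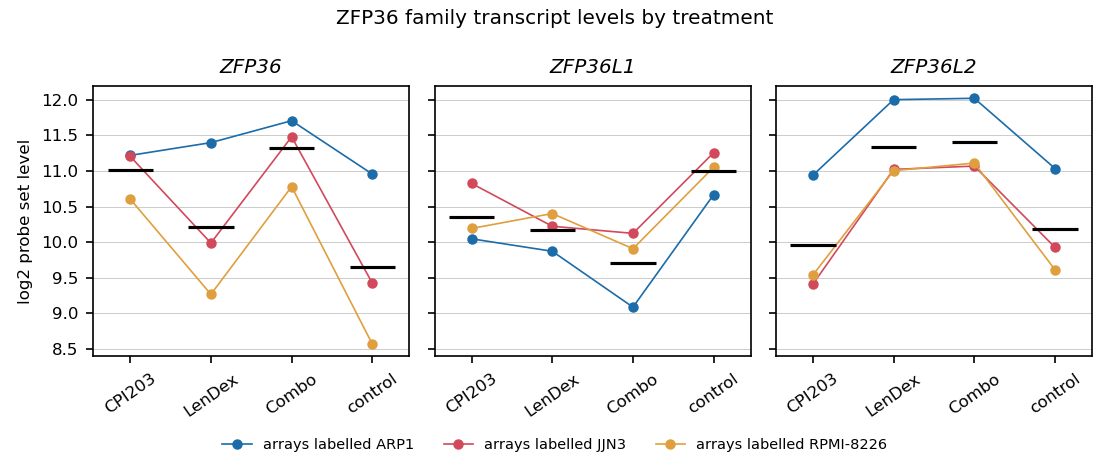
Log2 level of the highest probe set of ZFP36, ZFP36L1 and ZFP36L2 (y axis) in CPI203, LenDex, Combo and control cells (x axis). Points are single arrays, joined within a line, and bars are means of the 3 lines. ZFP36 is high in CPI203 and Combo, ZFP36L2 in LenDex and Combo, and ZFP36L1 is lowest in Combo.

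ZFP36 lies on chromosome 19 (GRCh38.p14, chr19:39406847-39409407, plus strand), and its 250 bases before the annotated start are shown because it is the member that led to the choice of the family and a known immediate early gene. Capitals mark a TATA box (TATAA, 30 to 26 bases upstream) and 3 GC boxes (GGGCGG on the plus strand 149 to 144 bases upstream, and its complement at 76 to 71 and at 52 to 47). The window is RefSeq sequence on GRCh38.p14, chr19:39406597-39406846, plus strand, with a GC content of 76.4%.
ZFP36 promoter: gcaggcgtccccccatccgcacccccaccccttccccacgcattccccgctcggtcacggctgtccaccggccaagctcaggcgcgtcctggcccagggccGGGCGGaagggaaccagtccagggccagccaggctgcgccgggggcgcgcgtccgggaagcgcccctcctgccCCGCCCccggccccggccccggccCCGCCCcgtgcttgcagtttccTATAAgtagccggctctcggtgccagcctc
Of the 35116 promoter windows of this length in the RefSeq table, 18.9% hold TATAA and 42.6% hold GGGCGG on either strand. The other motifs searched on both strands were CCAAT (in 32% of windows), the cAMP response element TGACGTCA (1.65%), the AP-1 site TGANTCA (6.57%), the glucocorticoid receptor half-site AGAACA (12.4%) and the CArG box (1.16%), and their letters are not in this window. None of the 7 motifs shares bases with another here.

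ZFP36 was highest in Combo and lowest in control cells in all 3 lines. On the arrays labelled JJN3 it stood at log2 11.20 in CPI203, 9.99 in LenDex and 11.48 in Combo cells, against 9.42 in control cells. On those labelled RPMI-8226 it stood at 10.60 in CPI203, 9.27 in LenDex and 10.78 in Combo cells, against 8.57 in control cells. In both lines the arrays with CPI203 lay well above those without it. ARP1 began from a high control level of 10.96 and reached 11.22 in CPI203, 11.40 in LenDex and 11.71 in Combo cells, so that there the CPI203 array lay below the LenDex array and arrays with and without CPI203 overlapped.

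The CPI203 effect on ZFP36 was 1.23 ± 0.23 (SE, log2). It was 0.29 on the ARP1, 1.64 on the JJN3 and 1.77 on the RPMI-8226 arrays, so the effect in ARP1 was the smallest, in the line with the highest control level. Over all genes 7.28% were called for the CPI203 effect, 3.3% higher and 3.99% lower, and 0.323% differed between lines. Without the JJN3 control array the effect was 1.17. Over the group means the order was Combo (11.32 ± 0.48), CPI203 (11.01 ± 0.35), LenDex (10.22 ± 1.08) and control (9.65 ± 1.21; SD, n = 3 lines each). No pair of neighbours in that order differed by more than the larger of their SDs over lines, which hold the differences between the lines themselves. After line was taken out, the residual SD of 1 array was 0.39. Combo and CPI203 differed by less than that, while CPI203 and LenDex, and LenDex and control, differed by more. This describes values that led to the choice of the family and is no test.

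The median of the plasma cell markers moved with CPI203 in the same lines. It stood at 7.82 in CPI203 and 6.99 in Combo cells on JJN3 arrays, against 8.27 in LenDex and 8.48 in control cells. On RPMI-8226 arrays it stood at 6.73 in CPI203 and 6.93 in Combo cells, against 8.43 in LenDex and 8.63 in control cells, while on ARP1 arrays it stayed between 11.56 and 11.75. On JJN3 and RPMI-8226 arrays this median rested mainly on TNFRSF17 (5.52 to 8.74 and 5.55 to 9.83) and SLAMF7 (7.17 to 9.99 and 6.83 to 8.41). SDC1, PRDM1 and CD38 lay low on these arrays, and XBP1, IRF4 and MZB1 lay high. The part of this median in the ZFP36 values was not tested.

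With LenDex, ZFP36 did not pass the test. The effect was 0.44 ± 0.23 (95% interval -0.06 to 0.94, limma adjusted p = 0.331), with 0.46 on ARP1, 0.42 on JJN3 and 0.44 on RPMI-8226 arrays. It was positive and of similar size in the 3 lines (SD 0.0229), and the test of a difference between lines gave an adjusted p of 0.99. The standard error of 0.23 comes from the pooled residual, which also holds the line differences in the CPI203 effect. With the ARP1 arrays left out, 0.43 was called (adjusted p = 0.0316), and without the JJN3 control array the effect was 0.37 (adjusted p = 0.502). Over all genes, 4.25% were called for the LenDex effect (1.73% higher, 2.52% lower) and 0.369% differed in it between lines.

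ZFP36L2 (GRCh38.p14, chr2:43222402-43226606) was the member that rose with LenDex, and its level with CPI203 alone was somewhat below that of control cells. On ARP1 arrays its highest probe set stood at log2 10.94 in CPI203, 12.001 in LenDex and 12.02 in Combo cells, against 11.03 in control cells. On JJN3 arrays it stood at 9.41 in CPI203, 11.02 in LenDex and 11.07 in Combo cells, against 9.93 in control cells. On RPMI-8226 arrays it stood at 9.54 in CPI203, 11.004 in LenDex and 11.11 in Combo cells, against 9.61 in control cells. Within each line both arrays with LenDex lay above both without it. Across lines the groups touched, because the ARP1 control array lay just above the LenDex arrays of the other lines.

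The LenDex effect on ZFP36L2 was 1.29 ± 0.10 (2.45-fold, 95% interval 1.08 to 1.51, limma adjusted p = 0.00047), with 1.02 on ARP1, 1.38 on JJN3 and 1.48 on RPMI-8226 arrays. The other 3 probe sets gave 1.42, 1.54 and 1.72, each higher in 3 of 3 lines, and when probe sets were tested singly all 4 were called (adjusted p from 2.32e-05 to 0.000197). Their deviations from the line means ran together over the 12 arrays (Pearson r from 0.980 to 0.997), which share RNA. The test of a difference between lines gave an adjusted p of 0.507. The call was lost without the JJN3 arrays (1.25, adjusted p = 0.13) and without the RPMI-8226 arrays (1.20, adjusted p = 0.0582). It held without the JJN3 control array (1.33, adjusted p = 0.00274). The median of the B cell markers also moved with treatment in 2 lines. On JJN3 arrays it was 8.17 in LenDex and 7.52 in Combo cells, against 7.11 in CPI203 and 7.68 in control cells, and on RPMI-8226 arrays 8.48 in LenDex and 7.38 in Combo cells, against 7.22 in CPI203 and 7.79 in control cells. On ARP1 arrays it was 4.89 in LenDex and 5.46 in Combo cells, against 5.14 in CPI203 and 5.40 in control cells, and its part in the LenDex results was not tested. On JJN3 and RPMI-8226 arrays this median rested mainly on PAX5, CD79B and BLK, of which BLK ranged most (7.26 to 8.78 and 7.21 to 9.45). MS4A1 stayed between 11.63 and 11.89 on JJN3 and between 11.48 and 12.06 on RPMI-8226 arrays.

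The CPI203 effect on ZFP36L2 was -0.09 ± 0.10 (95% interval -0.30 to 0.13), with -0.04 on ARP1, -0.23 on JJN3 and 0.02 on RPMI-8226 arrays, and -0.05 without the JJN3 control array. The other probe sets gave between -0.05 and 0.00. Over the groups, ZFP36L2 averaged 9.96 ± 0.85 in CPI203, 11.34 ± 0.57 in LenDex and 11.40 ± 0.54 in Combo cells, against 10.19 ± 0.75 in control cells (SD, n = 3 lines each). Combo and LenDex differed by less than the residual SD of 0.17, which is the spread of 1 array and no test of a difference. On this highest probe set CPI203 lay below control by 0.23, more than that SD and in 3 of 3 lines. JJN3 had the largest gap (-0.52, against -0.09 on ARP1 and -0.07 on RPMI-8226 arrays), which rests on the JJN3 control array. The other probe sets gave means of -0.17, -0.27 and -0.16 for CPI203 against control, but their lines differed. The first stood at -0.02 on JJN3 and -0.28 on RPMI-8226 arrays, and the last at 0.06 on RPMI-8226 arrays.

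ZFP36L1 (GRCh38.p14, chr14:68787655-68796243, minus strand) has 2 promoter windows in the RefSeq table. They are shown because it is the member that stood lower with both treatments, and for comparison with the ZFP36 window above. The first is chr14:68796244-68796493, minus strand, of GC content 56.4%, with capitals marking a CCAAT box on the opposite strand (59 to 55 bases upstream). Of the second, a stretch of 30 bases is shown, chr14:68793450-68793479, minus strand, whose capitals mark a cAMP response element 52 to 45 bases upstream of that start.
ZFP36L1 promoter, first window: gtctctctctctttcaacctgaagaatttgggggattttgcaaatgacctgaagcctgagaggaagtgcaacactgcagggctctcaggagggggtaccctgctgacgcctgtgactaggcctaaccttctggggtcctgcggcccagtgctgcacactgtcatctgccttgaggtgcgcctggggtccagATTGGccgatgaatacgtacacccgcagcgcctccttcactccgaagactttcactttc
ZFP36L1 promoter, second window: agtggaatgagTGACGTCAcagccgcgctc
The TATA box and GC boxes of the ZFP36 window are not in either ZFP36L1 window. Each motif is a match of letters and no measured binding site.

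ZFP36L1 was highest in control cells and lowest in Combo cells in all 3 lines. On ARP1 arrays its highest probe set stood at log2 10.05 in CPI203, 9.87 in LenDex and 9.09 in Combo cells, against 10.67 in control cells. On JJN3 arrays it stood at 10.82 in CPI203, 10.22 in LenDex and 10.12 in Combo cells, against 11.26 in control cells. On RPMI-8226 arrays it stood at 10.19 in CPI203, 10.40 in LenDex and 9.91 in Combo cells, against 11.05 in control cells. On ARP1 and JJN3 arrays both arrays with LenDex lay below both without it. On RPMI-8226 arrays they overlapped, since the LenDex array lay above the CPI203 array.

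With LenDex ZFP36L1 fell by 0.74 ± 0.11 on the log2 scale (1.67-fold lower, 95% interval -0.99 to -0.49, limma adjusted p = 0.0107), with -0.88 on ARP1, -0.87 on JJN3 and -0.47 on RPMI-8226 arrays. The test of a difference between lines gave an adjusted p of 0.485. The call was lost without the JJN3 arrays (-0.67, adjusted p = 0.182), without the RPMI-8226 arrays (-0.87, adjusted p = 0.159) and with the mean of all its probe sets in place of the highest one (-0.21, adjusted p = 0.0876). It held without the JJN3 control array (-0.75, adjusted p = 0.0344). The CPI203 effect was -0.55 ± 0.11 (1.46-fold lower), with -0.70 on ARP1, -0.27 on JJN3 and -0.68 on RPMI-8226 arrays. It was -0.56 without the JJN3 control array and -0.17 with the mean of all probe sets.

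The other ZFP36L1 probe sets carried little of this pattern. The next in mean level (5.66) lay between 5.06 and 6.16 on the 12 arrays. Its LenDex effect was -0.34, lower in 3 of 3 lines but not called when probe sets were tested singly (adjusted p = 0.171), and its CPI203 effect was -0.10. The remaining 3 lay between 4.45 and 5.52, at about the level of the filter, which the dimmest of them did not pass. Their LenDex effects were 0.08, -0.15 and 0.08 in order of falling mean level (5.22, 4.98 and 4.87), and their signs differed between lines. Deviations from line means correlated at 0.60 between the highest probe set and that next one, and at 0.04 to 0.55 with the other 3, over 12 arrays that share RNA. In the manufacturer's naming, the suffixes s and x mark probe sets whose probes may match more than 1 transcript, although the annotation gives each a single symbol. The ZFP36 value and the highest probe sets of ZFP36L1 and ZFP36L2 all come from sets with the suffix s.

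**Figure D2:**
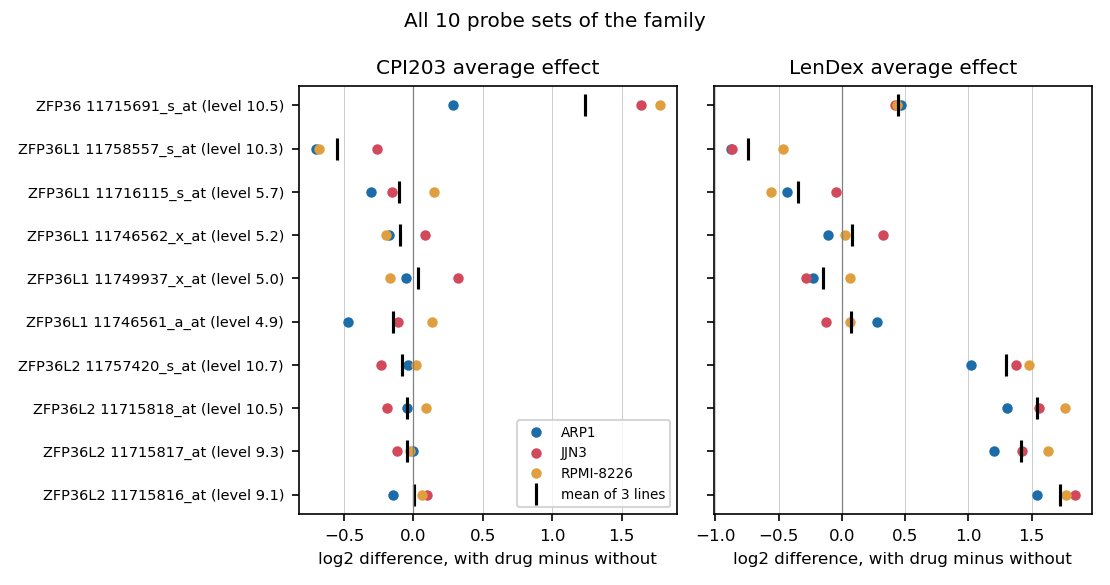
CPI203 (left) and LenDex (right) average effects on all 10 probe sets of the family (rows, with the mean log2 level), as log2 differences on the x axis. Coloured points are the 3 lines and black ticks their means. The 4 ZFP36L2 probe sets lie together between 1.29 and 1.72 for LenDex, while of the 5 ZFP36L1 probe sets the one at a level of 10.3 carries the fall.

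Over the groups ZFP36L1 averaged 10.35 ± 0.41 in CPI203, 10.17 ± 0.27 in LenDex and 9.71 ± 0.55 in Combo cells, against 10.99 ± 0.30 in control cells (SD, n = 3 lines each). CPI203 and LenDex differed by less than the residual SD of 0.19 after line was taken out, again the spread of 1 array and no test. Combo stood 0.46 below LenDex, more than that SD and lower in 3 of 3 lines, and the gap between CPI203 and control was larger than it too.

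The study combined the drugs, and the interaction asks whether Combo differs from the sum of the separate effects on the log2 scale. For ZFP36 it was -0.26 ± 0.45 (95% interval -1.26 to 0.75), for ZFP36L1 0.18 ± 0.22 (-0.32 to 0.68) and for ZFP36L2 0.29 ± 0.19 (-0.14 to 0.72). The interval of ZFP36 is wider than those of the other members. Over all genes 0% (0 of 15173) were called for the interaction. An unadjusted p under 0.05 was seen for 472, a smaller share than the 0.05 that no interaction at all would give on average.

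Combo against control brought both changes together. ZFP36 stood 1.67 ± 0.32 higher (0.75 on ARP1, 2.06 on JJN3 and 2.21 on RPMI-8226 arrays) and ZFP36L2 1.21 ± 0.14 higher (0.99, 1.14 and 1.499 in the same order). ZFP36L1 stood at -1.29 ± 0.16 (-1.58, -1.13 and -1.14). Without the JJN3 control array these were 1.54 for ZFP36, 1.28 for ZFP36L2 and -1.31 for ZFP36L1. Over all genes 9.15% were called in this comparison, which shares its arrays with both average effects.

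The levels in the untreated lines also differed among members. In control cells ZFP36 was higher on the ARP1 array (10.96) than on the JJN3 (9.42) and RPMI-8226 (8.57) arrays, and ZFP36L2 likewise (11.03, against 9.93 and 9.61). ZFP36L1 was lowest on the ARP1 array (10.67, against 11.26 on JJN3 and 11.05 on RPMI-8226). With 1 control array a line, these differences have no replicate check.

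**Figure D3:**
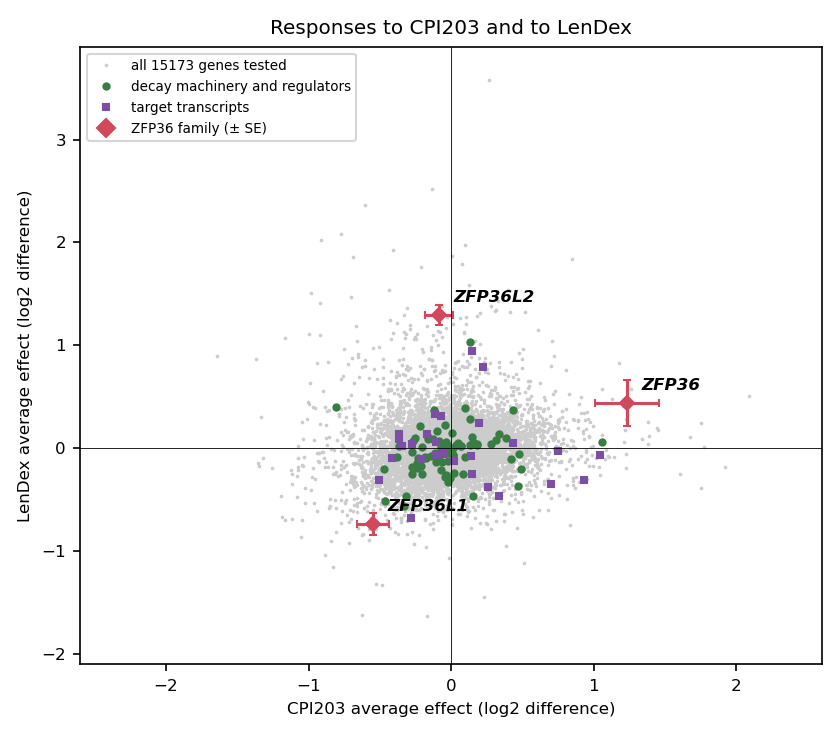
CPI203 average effect (x axis) against LenDex average effect (y axis), both as log2 differences, for the 15173 genes tested (grey), 80 genes of the decay machinery and its regulators (green), 28 target transcripts (violet) and the 3 members with standard errors (red). ZFP36 lies far right at 1.23, ZFP36L2 far up at 1.29, and ZFP36L1 low on both axes.

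Genes with the pattern most like each member were found by the correlation of deviations from line means over the 12 arrays, which share lines and treatments, and are given as a description. For ZFP36 they were TTC19 (r = 0.994), FBN1 (0.992), PNRC1 (0.990), RTN3 (0.989) and UBE2A (0.989), of which PNRC1 had a CPI203 effect of 1.20 and a LenDex effect of 0.41, near those of ZFP36. For ZFP36L1 they were RFTN1 (0.965), RPIA (0.958), RNF138 (0.953), TMEM201 (0.949) and JMJD6 (0.948), with LenDex effects from -0.57 to -0.27. For ZFP36L2 they were IGF2BP3 (0.966), PPP1R10 (0.962), FKBP5 (0.961), TEPSIN (0.959) and CXCR4 (0.958). FKBP5, a glucocorticoid receptor co-chaperone and classic target of that receptor, had a LenDex effect of 1.87, and the chemokine receptor gene CXCR4 one of 2.52. Among the members r was -0.67 between ZFP36 and ZFP36L1, -0.68 between ZFP36L1 and ZFP36L2, and 0.22 between ZFP36 and ZFP36L2. The genes above were picked for the highest r, so the members cannot be compared with them.

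Few genes of the machinery that the family recruits passed the test. Of 80 tested genes of the decay machinery and its regulators, CPI203 raised 2 and lowered 3 (6.25% called, against 7.28% of all genes), and LenDex raised 0 and lowered 3 (3.75%, against 4.25%). In Combo, compared with control, 1 rose and 6 fell (8.75%, against 9.15%). These shares are close to the background.

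None of the 11 CCR4-NOT subunits was called with either treatment, at medians of -0.06 for CPI203 and -0.09 for LenDex, where the medians over all genes were 0.00 and 0.01. The smallest p with CPI203 was that of CNOT4, a ubiquitin ligase that associates with the complex (0.48 ± 0.13, adjusted p = 0.0523), and with LenDex that of CNOT1, the scaffold on which the ZFP36 proteins dock (-0.29 ± 0.08, adjusted p = 0.0604). Among 7 tested adaptors and other deadenylases (BTG2 was not measured by a probe set of its own), TOB1, an antiproliferative protein that bridges CCR4-NOT to the poly(A)-binding protein, rose with CPI203 by 1.06 ± 0.21 (2.08-fold, adjusted p = 0.0225). As with ZFP36, its rise was smaller on ARP1 arrays (0.18) than on JJN3 (1.46) and RPMI-8226 arrays (1.53). PARN, a poly(A)-specific ribonuclease, fell by 0.25 ± 0.06 with CPI203 (adjusted p = 0.0403), and BTG3, of the TOB1 family, fell by 0.57 ± 0.13 with LenDex (adjusted p = 0.0383). With the JJN3 control array left out, 0 of these 7 were called with either treatment, and TOB1 stood at 0.98 (adjusted p = 0.0724). Over all 15173 genes that setting called 118 with CPI203 and 237 with LenDex.

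Of 19 decapping and 5′-to-3′ decay genes none was called with CPI203 and 1 fell with LenDex (medians -0.07 and 0.02). It was DCP1A, a decapping activator, which fell by 0.46 ± 0.09 (adjusted p = 0.0284). GIGYF2, a translational repressor that partners with ZFP36, had the smallest p with CPI203 (0.39 ± 0.11, adjusted p = 0.0609). Of 15 exosome and SKI genes, which degrade RNA from the 3′ end, EXOSC4, a core subunit, fell with both treatments, by 0.46 ± 0.09 with CPI203 (adjusted p = 0.022) and by 0.52 ± 0.09 with LenDex (adjusted p = 0.0153). The exosome medians were -0.11 for CPI203 and -0.14 for LenDex.

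In Combo cells, compared with control cells, 4 of the 15 exosome and SKI genes fell and none rose, at a median of -0.36, where that of all genes was 0.01 and 5.6% of all genes were called lower and 3.55% higher. They were the core or cap subunits EXOSC4 (-0.98 ± 0.12, adjusted p = 0.00384), EXOSC3 (-0.79 ± 0.20, adjusted p = 0.0384), EXOSC9 (-0.68 ± 0.18, adjusted p = 0.0443) and EXOSC7 (-0.38 ± 0.10, adjusted p = 0.0486), all lower in 3 of 3 lines and named after their values were seen. EXOSC3 and EXOSC9 were least changed on ARP1 arrays (-0.16 and -0.06). The count was 7 at a mean level of 6 or more, and 6 with the mean of all probe sets or with the variance trend. Over all genes these called 1799 of 8407, 1498 of 13765 and 1822 of 15173. It was 4 without the ARP1 arrays, 3 with no level filter, and 2 with cyclic loess or probe sets tested singly. It was 1 without the JJN3 control array, and 0 without the JJN3 or the RPMI-8226 arrays or with no replicate block. Over all 15173 genes the settings of this last sentence called 300, 0, 2 and 3 in the same order. The other machinery genes called in Combo, named likewise, were TOB1 (1.11), BTG3 (-0.90) and EIF4ENIF1, a partner of the cap-binding protein eIF4E (-0.43). Among targets MYC (-0.81) and CCND3 (1.09) were called.

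Other proteins that act on AU-rich or stem-loop elements numbered 13 tested, with medians of -0.03 for CPI203 and -0.04 for LenDex. RC3H2 (Roquin-2), which destabilises stem-loop transcripts, rose by 0.42 ± 0.10 with CPI203 (adjusted p = 0.0399; 0.25, adjusted p = 0.0297, with the mean of its probe sets), and none fell. With LenDex none was called. ZC3H12A (Regnase-1), an endonuclease of inflammatory transcripts, had the smallest p with LenDex (1.03 ± 0.30, adjusted p = 0.0873), with 2.18 on ARP1, 0.13 on JJN3 and 0.79 on RPMI-8226 arrays. Of 15 tested genes of the p38-MK2 pathway and the 14-3-3 proteins (MAPK14 was not measured by a probe set of its own), MAPKAPK3, a kinase close to MK2, fell by 0.37 ± 0.07 with CPI203 (adjusted p = 0.0242), and none rose. With the mean of its probe sets that call was lost (-0.14, adjusted p = 0.378). With LenDex none was called, and the smallest p was that of the 14-3-3 gene YWHAG (-0.28 ± 0.07, adjusted p = 0.0637). The medians of this list were 0.04 for CPI203 and 0.03 for LenDex.

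Transcripts known as targets of the family moved in both directions with CPI203. Of 35 listed, 31 were measured and 28 passed the level filter. With CPI203, 5 rose and 2 fell (25% called, against 7.28% of all genes), at a median of -0.06. The list was chosen with earlier results of these data known, so this share is no independent evidence. The count depended on the setting. Without the ARP1 arrays 7 rose and 4 fell, without the JJN3 control array 1 rose and 0 fell, and with no replicate block 0 were called. Over all genes these settings called 2399, 118 and 0. The largest rises were those of FOS, an AP-1 subunit (1.04 ± 0.19, adjusted p = 0.0194), NOTCH1, a receptor (0.75 ± 0.16, adjusted p = 0.0293), and IER3, an early response gene (0.70 ± 0.09, adjusted p = 0.0112). The other two that rose, MCL1 and PIM3, lie outside the rule of 3 and were named after their values were seen (0.43, adjusted p = 0.0347, and 0.33, adjusted p = 0.0468). MYC, the oncogenic transcription factor, fell by 0.51 ± 0.10 (adjusted p = 0.025) and E2F1, a cell cycle transcription factor, fell by 0.35 ± 0.08 (adjusted p = 0.0396). With the mean of all probe sets of a gene, NOTCH1 (0.28, adjusted p = 0.0856) and MCL1 (0.37, adjusted p = 0.058) were not called, and 3 of 26 targets rose and 3 fell. TNF, the best known ZFP36 target, did not pass (0.93 ± 0.26, adjusted p = 0.0587).

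On the separate lines FOS changed with CPI203 by 0.53 on ARP1, 1.64 on JJN3 and 0.96 on RPMI-8226 arrays, and IER3 by 0.61, 0.76 and 0.72 in the same order. NOTCH1, at 0.11, 0.997 and 1.13, was least changed on ARP1 arrays. MYC stood at -0.33 on ARP1 and JJN3 arrays and at -0.86 on RPMI-8226 arrays.

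With LenDex, 1 of the 28 targets rose and 1 fell (7.14% called, against 4.25% of all genes), at a median of -0.05. CCND3, the D-type cyclin that the family restrains in developing mouse lymphocytes, rose by 0.95 ± 0.18 (1.93-fold, adjusted p = 0.0212), with 1.49 on ARP1, 0.71 on JJN3 and 0.63 on RPMI-8226 arrays. With the mean of its probe sets that call was lost (0.41, adjusted p = 0.081). PIM3, a survival kinase, fell by 0.46 ± 0.09 (adjusted p = 0.0209). Leaving out the JJN3 control array, 3 calls of an average effect remained over all lists: IER3 with CPI203 (0.66, adjusted p = 0.0399), and CCND3 (1.01, adjusted p = 0.0458) and EXOSC4 (-0.53, adjusted p = 0.0427) with LenDex. With the JJN3 or the RPMI-8226 arrays left out, or averaged into 1 line, no gene of any list was called. Over all 15173 genes these settings called 0, 0 and 0 with CPI203 and 2, 5 and 4 with LenDex. The absence of calls is thus not particular to the lists. The plasma cell marker medians given above also moved with CPI203 beside these lists, and their part was not tested.

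**Figure D4:**
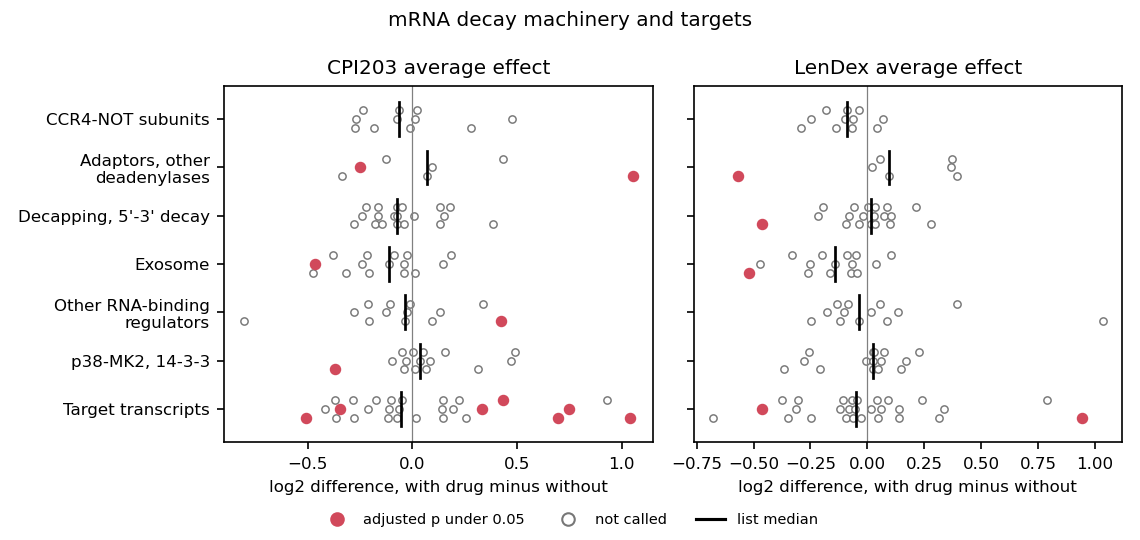
CPI203 (left) and LenDex (right) average effects, as log2 differences on the x axis, of the 108 tested genes in 7 lists (rows). Filled points passed an adjusted p under 0.05, open points did not, and black bars are list medians. List medians lie between -0.14 and 0.09, and the CPI203 panel has 7 called targets, 5 to the right and 2 to the left.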

How the data were processed

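The authors deposited probe set levels on the log2 scale, as their range shows. Per the submitters' processing notes the tools were RMA and Affymetrix Expression Console 1.1. RMA gives arrays a common distribution of intensities, which makes every change relative to the other transcripts (array medians 5.304 to 5.375). Whether the 12 arrays were normalised together is not given in the sources used here. Control probe sets (93) were left out. A single symbol stood in the platform annotation for 45253 probe sets, and 45172 of these matched a RefSeq gene identifier, through which symbols were updated. A gene took its probe set of highest mean, and a level of log2 5 on at least 3 arrays was required, which left 15173 genes.

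Groups came from the treatment labels. The linear model (limma 3.58.1 in R 4.3.3) had terms for line and group over 12 arrays, with 6 residual degrees of freedom, and two-sided moderated tests, adjusted by Benjamini-Hochberg over the 15173 genes. Line differences used a moderated F test of line by drug terms with 3 residual degrees of freedom, assuming additive drugs. Line was a block because arrays of 1 label come from the same line. Deviations from group means correlated within ARP1 (0.905 to 0.938), within JJN3 (0.820 to 0.884) and within RPMI-8226 (0.831 to 0.888). These values hold the distance of ARP1 from the other lines, and no such correlation between labels was computed. They therefore cannot tell the JJN3 and RPMI-8226 labels apart. The fit was tested on simulated data with independent noise on each array and, for the average effects, the same effect in every line. That simulation does not cover average effects of drugs whose responses differ between lines, and no result here rests on it. The members and the lists were chosen with earlier results of these data known. The lists, from general knowledge, were CCR4-NOT subunits, adaptors and other deadenylases, decapping, exosome, other element-binding regulators, p38-MK2 with 14-3-3, and target transcripts. Named were all member probe sets, of each list and drug effect up to 3 called genes with the largest change each way (or else the smallest p), the 5 genes most like each member, and TSC22D3 and HEXIM1 as drug checks. Promoter windows of ZFP36 and ZFP36L1 are from RefSeq (GRCh38.p14). Alternatives were the level filter, the probe set per gene, cyclic loess, the variance model, no line block, leaving out each line or the JJN3 control array, JJN3 and RPMI-8226 averaged, and fewer arrays in the fit.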

Additional observations from a re-analysis of the deposited data

How the results depend on the processing

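No alternative reversed a direction of a member. The CPI203 effect on ZFP36 ranged from 0.96 to 1.71 over 12 alternatives. With the mean of all probe sets, ZFP36L1 stood at -0.17 for CPI203, -0.21 for LenDex (adjusted p = 0.0876) and -0.39 for Combo against control, since this mean takes in its 4 dimmer probe sets. Leaving out 1 line gave LenDex effects of 0.43 to 0.45 for ZFP36 (adjusted p = 0.0316 without ARP1, 0.606 without JJN3), -0.87 to -0.67 for ZFP36L1 and 1.20 to 1.43 for ZFP36L2. With JJN3 and RPMI-8226 averaged, ZFP36L1 gave -0.77 (adjusted p = 0.123) and ZFP36L2 1.23 (adjusted p = 0.0598). With no replicate block, so without the pairing by line, they gave -0.74 (adjusted p = 0.537) and 1.29 (adjusted p = 0.503). Over all alternatives the adjusted p ran from 0.000724 to 0.537 for ZFP36L1 and from 1.14e-06 to 0.503 for ZFP36L2.

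Counts of called genes moved more than values did, and the cause was not tested. The CPI203 count of 1105 was 1714 with probe sets tested singly, 1686 with a variance trend and robust fit, 0 with no replicate block, 0 to 2399 with 1 line left out, 118 without the JJN3 control array and 0 with JJN3 and RPMI-8226 averaged. The LenDex count of 645 was 1008 at a mean level of 6 or more, 1155 singly, 1029 with the trend, 1 with no block, 2 to 918 with 1 line left out, 237 without the JJN3 control array and 4 averaged. That of Combo against control (1388) was 2349 singly, 3 with no block, 0 to 2219 with 1 line left out, 300 without the JJN3 control array, 3 averaged and 2 from the Combo and control arrays alone. Line differences in the CPI203 effect (49) numbered 24 singly, 673 with the trend and 0 without the JJN3 control array, and those in the LenDex effect (56) 112, 471 and 0. The interaction called 0 genes under all 12 alternatives. The number of arrays limits all tests, and ZFP36L1 probe sets near the filter have little signal over background.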
